A study of Homo sapiens with 5 samples.

Results

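The genes described here encode the enzymes and carriers of central carbon metabolism: glycolysis, the pentose phosphate pathway, the entry of pyruvate into mitochondria and the tricarboxylic acid (TCA) cycle. They were a list of 50 genes matched by symbol in the count tables, where all 50 were found among 26485 genes, and 49 passed the filter on low counts. Levels were measured by 3' end RNA sequencing in SW480 cells, a line established from a human colorectal cancer. Every library came from cells carrying dCas9-KRAB, in which a Cas9 that cannot cut brings a repressor domain to the promoter chosen by a guide RNA. The 2 control libraries came from cells that received control guides, and the 3 knockdown libraries from cells that received a guide against AKAP12, which encodes a scaffold protein for protein kinases A and C. Sample titles read shControl and shAKAP12, names that point to short hairpins, while the treatment text describes guides. RNA was taken 48 hours after seeding in both groups, and the labels do not say whether the libraries of a group came from separate cultures or clones, so the p-values reflect library-to-library spread alone, which may be technical. In such bulk samples, fewer cells of a type and less RNA per cell cannot be told apart.

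Glycolysis splits glucose into pyruvate in the cytosol, first spending ATP (the preparatory phase) and then regaining it with NADH (the pay-off phase). Lactate dehydrogenase turns pyruvate into lactate and restores NAD, and tumour cells are known for doing so even where oxygen is present. The pentose phosphate pathway branches off at glucose 6-phosphate to make NADPH and ribose for nucleotides. Pyruvate dehydrogenase feeds acetyl groups into the TCA cycle, and its kinases switch it off. Many steps have isozymes from separate genes with different kinetics and control, and several of these genes are known targets of the hypoxia-inducible factor HIF-1.

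Start regions are shown for 4 members that were higher in the knockdown (LDHA, PGK1, HK2 and FH) and 3 that were lower (PKM, TPI1 and GAPDH), picked with their values known so that both directions include a window with and a window without the letters searched. Each is the 250 bases before 1 RefSeq start (GRCh38.p14), 5′ to 3′ on the strand of the gene. Where RefSeq has several starts, the one nearest the outermost gene start in the count tables was taken. The RefSeq start lay 30 to 1472 bases from that outermost start, downstream in each case, so part of each window, and all of those of HK2 and GAPDH, lay within the span counted for the gene. Capitals mark ACGTG on either strand (written CACGT when on the other strand), a form of the core of the hypoxia response element. ACGTG also lies within the E-box CACGTG. The other form of the core, GCGTG, was not searched, so a window without capitals may still hold it, as that of FH does.
LDHA (chr11:18394313-18394562, plus strand): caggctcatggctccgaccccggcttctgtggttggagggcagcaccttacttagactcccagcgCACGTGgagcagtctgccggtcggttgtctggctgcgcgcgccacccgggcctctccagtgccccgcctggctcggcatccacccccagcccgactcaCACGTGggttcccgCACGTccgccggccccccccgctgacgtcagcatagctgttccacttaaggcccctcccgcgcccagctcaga
PGK1 (chrX:78103998-78104247, plus strand): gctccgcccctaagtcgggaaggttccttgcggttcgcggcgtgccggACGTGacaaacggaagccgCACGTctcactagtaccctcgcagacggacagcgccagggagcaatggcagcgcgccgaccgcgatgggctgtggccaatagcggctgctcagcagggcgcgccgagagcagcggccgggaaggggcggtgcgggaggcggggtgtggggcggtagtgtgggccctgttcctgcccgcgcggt
HK2 (chr2:74833877-74834126, plus strand): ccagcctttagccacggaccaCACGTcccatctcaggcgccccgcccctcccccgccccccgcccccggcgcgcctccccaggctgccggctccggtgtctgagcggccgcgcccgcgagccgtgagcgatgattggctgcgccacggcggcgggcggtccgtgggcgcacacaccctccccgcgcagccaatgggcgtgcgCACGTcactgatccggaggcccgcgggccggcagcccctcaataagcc
FH (chr1:241519756-241520005, minus strand): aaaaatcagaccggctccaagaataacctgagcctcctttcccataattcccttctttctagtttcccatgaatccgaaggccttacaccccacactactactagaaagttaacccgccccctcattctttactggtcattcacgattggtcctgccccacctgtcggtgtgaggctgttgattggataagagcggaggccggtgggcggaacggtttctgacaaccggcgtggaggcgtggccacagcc
PKM (chr15:72231191-72231440, minus strand): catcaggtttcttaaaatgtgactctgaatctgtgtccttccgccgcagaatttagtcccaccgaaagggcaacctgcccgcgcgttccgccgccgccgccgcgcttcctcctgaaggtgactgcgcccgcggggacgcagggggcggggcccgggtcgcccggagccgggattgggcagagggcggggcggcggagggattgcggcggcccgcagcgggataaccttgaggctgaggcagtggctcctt
TPI1 (chr12:6867281-6867530, plus strand): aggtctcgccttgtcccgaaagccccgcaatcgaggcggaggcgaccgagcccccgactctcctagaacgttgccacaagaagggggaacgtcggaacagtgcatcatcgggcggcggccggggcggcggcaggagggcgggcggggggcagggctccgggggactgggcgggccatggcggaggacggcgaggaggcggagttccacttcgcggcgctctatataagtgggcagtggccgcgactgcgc
GAPDH (chr12:6535014-6535263, plus strand): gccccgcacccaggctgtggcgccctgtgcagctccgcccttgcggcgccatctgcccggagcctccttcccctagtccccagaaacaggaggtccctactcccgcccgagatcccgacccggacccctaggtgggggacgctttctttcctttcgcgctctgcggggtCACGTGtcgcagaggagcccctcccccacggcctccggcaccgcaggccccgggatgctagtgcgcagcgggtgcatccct

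Total counts were 4935096 to 9311026 reads per library. The targeted gene AKAP12 had 2865 and 1547 CPM (reads of a gene relative to the TMM-scaled library total) in the control libraries, against 1157, 1061 and 1006 CPM after knockdown. Its log2 fold change, -1.04, had an edgeR adjusted p of 0.0513, outside the threshold of 0.05. Its fold change was -0.52 without control 1 and -1.42 without control 2. The controls stood apart from each other, with a Pearson r of log2 CPM over all genes of 0.911 (genes are no independent replicates). Control 2 was closer to each knockdown library (r from 0.924 to 0.943) than to control 1, control 1 was farther from them (0.808 to 0.824), and pairs of knockdown libraries had 0.986 to 0.988. TERT took 7.43% and 3.54% of the control reads and 0.0451% to 0.249% of the knockdown reads, and short non-coding RNA genes 8.81% and 1.97% against 0.684% to 1.00%. With these genes removed, all 18 members called below were still called. Of 10 epithelial markers, EPCAM (81.9 to 168 CPM), KRT18 (427 to 982 CPM), KRT19 (315 to 387 CPM), CLDN4 (10.3 to 45.8 CPM) and CDX2 (18.6 to 36.6 CPM) were present in all libraries and not called. KRT8 was called higher in the knockdown, at 68.9 and 54.8 CPM against 143, 227 and 268 CPM. CDH1 (1.23 to 7.58 CPM), VIL1 (0.715 to 3.42 CPM), ELF3 (0 to 3.32 CPM) and KRT20 (0 to 0.491 CPM) were low or at 0. Markers that an epithelial line should lack were counted too, with summed levels of 8 stromal genes at 364 and 505 CPM in the controls and 501 to 561 CPM in the knockdown, and of 9 blood genes at 85.6 and 122 CPM against 97.8 to 122 CPM. Of these 17 marker genes, CD3D was called lower in the knockdown, at 2.20 and 3.09 CPM against 0.715, 0.936 and 0.614 CPM. The others were not called. None of the 17 was at 0 in every library, their sums overlapped between the groups, and their part in the results was not tested.

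In the knockdown, 8 of the 49 tested members rose and 10 fell by edgeR (quasi-likelihood test, Benjamini-Hochberg adjusted over all genes, threshold 0.05). That is 36.7% of the members, read against a background of 22.6% of all 14536 tested genes, with 11.2% higher and 11.4% lower. The members also had more reads than other genes, with a median log2 CPM of 6.19 against 4.27, and the part of depth in their share of calls was not tested. The glucose carrier SLC2A1, hexokinase 2, PGK1, LDHA, PDK1, PDHB, RPE and FH rose. The lactate carrier SLC16A3, HK1, PFKL, PFKP, ALDOA, TPI1, GAPDH, PKM, RPIA and TKT fell. The median log2 fold change was 0.11 over the members and 0.04 over all tested genes, and the median size regardless of sign was 0.70 and 0.65.

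By step, most calls were in glycolysis. Of 18 tested glycolytic genes, 3 rose and 7 fell, with a median log2 fold change of -0.43. Of 16 TCA cycle genes, 1 rose and none fell, with a median of 0.25. In the pentose phosphate pathway 1 of 6 rose and 2 fell (median -0.21), at pyruvate entry 2 of 5 rose (median 0.73), and of the 4 carriers 1 rose and 1 fell (median 0.51). The difference between these steps was not tested. The level of every library in the 2 groups did not overlap for 34 of 49 members (19 higher, 15 lower), against a background of 60.1% of all tested genes (31.6% higher, 28.5% lower).

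The number of calls depended on single libraries. Without control 1, 17 members were higher and 14 lower of 50 tested (background 37.3%), and without control 2, 19 were higher and 16 lower of 50 (background 58.1%). In those fits the lone control was assumed to vary like the knockdown libraries. Without any 1 of the 3 knockdown libraries edgeR called no gene at all (background 0%), the 18 members had adjusted p values from 0.0925 to 0.182, and 18 to 21 members had an unadjusted p under 0.05. All 18 called members kept their direction in those 5 fits, which was nearly fixed in advance because their groups did not overlap. Other scalings and models moved the count less, apart from the replicate block. RLE scaling called 8 higher and 10 lower (background 23.2%), and removal of TERT and short RNA genes 8 higher and 11 lower (background 22.9%). With the replicate number as a block no member was called (background 1.44%). With library size only as the scaling (background 18.2%), which moved the median of all genes to a log2 fold change of 0.23, the split of called members was 10 higher and 7 lower, and over all genes 1667 higher and 982 lower in place of 1624 and 1658.

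**Figure D1:**
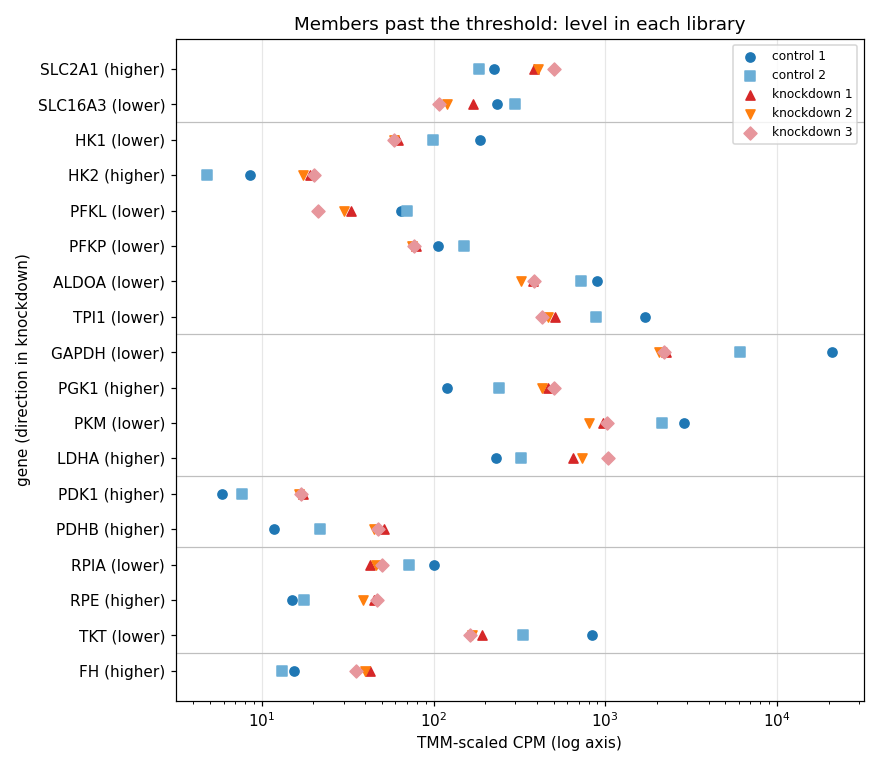
Level of each member past the threshold in each of the 5 libraries (TMM-scaled CPM, log axis; horizontal lines separate the steps of metabolism). In each of the 18 genes the 3 knockdown libraries lie on one side of both controls, and control 1 lies far from control 2 for GAPDH and TKT.

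Glucose enters through facilitative carriers. SLC2A1, the basal glucose carrier GLUT1, was at 224 and 185 CPM in the controls and at 385, 408 and 504 CPM in the knockdown. Every knockdown library was above both controls, and the log2 fold change was 1.08 (SE 0.23, edgeR adjusted p = 0.0248). SLC2A3, the high-affinity carrier GLUT3, was at 356 and 391 CPM against 587, 559.6 and 571 CPM. Its groups did not overlap either, but the edgeR adjusted p of 0.0639 missed the threshold (log2 fold change 0.61), and DESeq2 gave an adjusted p of 0.0209. Exons of SLC2A1 overlap SLC2A1-AS1 on the other strand, so reads of the pair could not be told apart.

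Lactate leaves through monocarboxylate carriers, of which 1 fell. SLC16A3, the exporter MCT4, was at 234 and 297 CPM in the controls and fell to 170.3, 119 and 108 CPM (log2 fold change -1.002, SE 0.26, edgeR adjusted p = 0.0371). SLC16A1, the carrier MCT1, was at 249 and 449 CPM against 492, 420.2 and 481 CPM, where the groups overlapped (log2 fold change 0.41, edgeR adjusted p = 0.323). By library size only, SLC16A3 missed the threshold (edgeR adjusted p = 0.0914).

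The first step of glycolysis traps glucose as glucose 6-phosphate, and its enzymes moved in opposite directions. HK1, the hexokinase of most tissues (chromosome 10, 69270000 to 69401881, hg38), was at 188 and 98.7 CPM in the controls and at 62.1, 59.0 and 58.7 CPM in the knockdown. HK2, the isozyme typical of insulin-responsive tissues and many tumours (chromosome 2, 74832655 to 74893354), was at 8.56 and 4.81 CPM against 19.1, 17.4 and 20.2 CPM. Both genes had groups that did not overlap, with HK1 lower at a log2 fold change of -1.25 by edgeR (SE 0.28, adjusted p = 0.0282) and HK2 at 1.54 (SE 0.32, edgeR adjusted p = 0.0243). Without control 1, HK1 was at -0.72 and HK2 at 1.97, and without control 2 they were at -1.65 and 1.14.

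Phosphofructokinase makes the committed step of glycolysis from 3 subunit genes. PFKL, the liver type, fell from 64.3 and 70.4 CPM to 33.1, 30.2 and 21.4 CPM, for which the log2 difference was -1.25 (SE 0.24, edgeR adjusted p = 0.0217). PFKP, the platelet type, was at 106 and 151 CPM against 79.5, 75.0 and 77.4 CPM. All its knockdown libraries were below both controls, but its log2 fold change of -0.73 passed only narrowly (SE 0.21, edgeR adjusted p = 0.04997), and it missed by library size only (0.170) and without a filter on low counts (0.0730). It was at -0.96 without control 1 and -0.46 without control 2. PFKM, the muscle type, lay between the controls in all knockdown libraries, at 45.7 and 26.0 CPM against 34.5, 39.4 and 40.6 CPM (log2 fold change 0.10). Exons of PFKM overlap SENP1 on the other strand.

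Fructose 2,6-bisphosphate, the activator of phosphofructokinase, is made and removed by the PFKFB enzymes. PFKFB3, the form with high kinase activity, was at 14.9 and 13.6 CPM against 18.7, 24.3 and 24.5 CPM, and its edgeR adjusted p of 0.0907 missed the threshold. PFKFB2 was at 18.1 and 23.9 CPM against 20.4, 17.1 and 17.2 CPM, where the groups overlapped. GPI, which turns glucose 6-phosphate into fructose 6-phosphate, had a log2 fold change of -0.52 and missed the threshold as well (edgeR adjusted p = 0.0892).

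Of the enzymes that cleave and interconvert the sugar phosphates, ALDOA and TPI1 fell and ALDOC was not called. ALDOA, the main aldolase of most tissues, was at 899.7 and 724 CPM in the controls and at 379, 321 and 383 CPM in the knockdown (log2 fold change -1.17, SE 0.22, edgeR adjusted p = 0.0203). ALDOC, the brain aldolase, was counted at only 2.04 to 4.01 CPM in all libraries, where the groups overlapped (log2 fold change -0.35, edgeR adjusted p = 0.592). TPI1, triose phosphate isomerase, fell from 1714 and 881 CPM to 508, 462 and 426 CPM (log2 fold change -1.48, SE 0.31, edgeR adjusted p = 0.0243), and it was at -0.92 without control 1 and -1.88 without control 2. Exons of TPI1 overlap SPSB2 on the other strand.

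The pay-off phase had 2 members that fell, GAPDH and PKM, and 2 that rose, PGK1 and LDHA. GAPDH, which makes the first NADH of the pathway (chromosome 12, 6534405 to 6538375), was at 20977 and 6083 CPM in the controls and at 2272, 2065 and 2211 CPM in the knockdown. The controls differed from each other more than control 2 differed from the knockdown on the CPM scale, and the log2 fold change of -2.63 (edgeR, SE 0.50, adjusted p = 0.0213) was -1.48 without control 1 and -3.27 without control 2. PGK1, the next enzyme and the first to regain ATP (chromosome X, 78104169 to 78126827), moved the other way, from 120.3 and 241 CPM to 461, 426 and 502 CPM (log2 fold change 1.35, SE 0.33, edgeR adjusted p = 0.0319). It was at 0.94 without control 1 and 1.94 without control 2.

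The mutase that follows, PGAM1, had 1 and 10 control reads against 9, 10 and 6 knockdown reads, too few for the test. GENCODE release 29 annotates 62 pseudogenes named after GAPDH and 13 named after PGAM1, and reads that align to several places are left out by the counter's default, so the levels of both genes are uncertain. Other called members had fewer, with 6 each for LDHA and RPE, 5 for PKM, 4 for TPI1 and 2 for ALDOA. HK2, PGK1, RPIA and FH had 1 each. The same limit applies to these genes, and its size was not tested. ENO1, the enolase of most tissues, was at 1001 and 1656 CPM in the controls and 1854, 1602 and 1575 CPM in the knockdown, where the groups overlapped (log2 fold change 0.34). ENO2, the neuronal enolase, was at 63.3 and 94.1 CPM against 56.2, 53.1 and 50.3 CPM, below both controls, and missed the threshold (log2 fold change -0.57, edgeR adjusted p = 0.110).

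Pyruvate kinase and lactate dehydrogenase closed the pathway in opposite directions. PKM, the pyruvate kinase gene of most tissues, whose splice forms cannot be separated in gene counts, was at 2876 and 2151 CPM in the controls and at 975, 809 and 1028 CPM in the knockdown (log2 fold change -1.42, SE 0.25, edgeR adjusted p = 0.0189). LDHA, the muscle-type subunit that favours lactate formation (chromosome 11, 18394389 to 18408218), was at 231 and 324 CPM against 652, 733 and 1041 CPM. Every knockdown library exceeded both controls, and the log2 fold change was 1.54 (SE 0.30, edgeR adjusted p = 0.0221). LDHB, the heart-type subunit, was at 831 and 883 CPM against 1031, 977 and 1022 CPM (log2 fold change 0.24, edgeR adjusted p = 0.421).

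**Figure D2:**
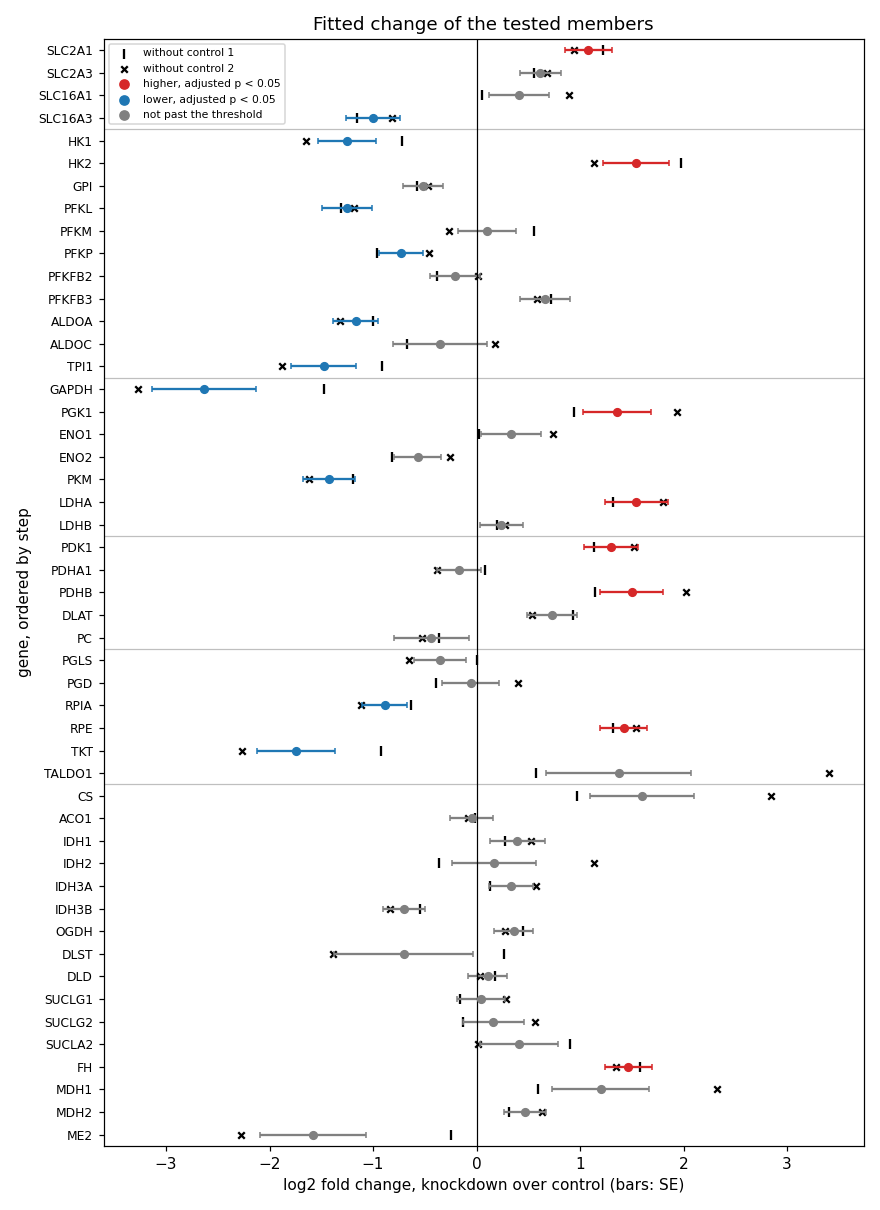
Fitted log2 fold change (knockdown over control) of the 49 tested members in the order of the pathway, with SE bars, and the values without control 1 (upright tick) and without control 2 (cross). GAPDH has the lowest value at -2.63, and the 18 members past the threshold stay on their side of 0 without either control. Their groups did not overlap, so this was nearly fixed in advance.

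Pyruvate reaches the TCA cycle through the pyruvate dehydrogenase complex. PDHB, the beta subunit of its first enzyme, was at 11.7 and 21.8 CPM in the controls and at 51.2, 45.1 and 47.7 CPM in the knockdown (log2 fold change 1.498, SE 0.30, edgeR adjusted p = 0.0227). Its partner PDHA1, the alpha subunit, was at 318 and 231 CPM against 240.1, 237 and 256 CPM and was not called (log2 fold change -0.17, edgeR adjusted p = 0.586). The difference between the subunit genes was not tested. Exons of PDHA1 overlap MAP3K15 on the other strand. PDK1, a kinase that switches the complex off, also rose, from 5.87 and 7.67 CPM to 17.3, 16.4 and 16.9 CPM (log2 fold change 1.30, SE 0.26, edgeR adjusted p = 0.0227). DLAT, the acetyltransferase core, was at a log2 fold change of 0.73 (by edgeR, adjusted p = 0.0685), and PC, which makes oxaloacetate from pyruvate, at -0.44 (edgeR adjusted p = 0.400). Without control 1, PDHB was at 1.14, and without control 2 at 2.03.

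In the pentose phosphate pathway the oxidative members were not called. PGLS, the lactonase, had a log2 fold change of -0.35, and PGD, the second NADPH-producing dehydrogenase, of -0.06. The non-oxidative branch, which interconverts sugar phosphates, was split. RPE, the epimerase, was at 14.9 and 17.5 CPM in the controls and at 44.96, 38.9 and 46.9 CPM in the knockdown (log2 fold change 1.42, SE 0.22, edgeR adjusted p = 0.0163). RPIA, the isomerase that makes ribose 5-phosphate, fell from 100.5 and 71.9 CPM to 42.6, 46.3 and 50.4 CPM (log2 fold change -0.89, SE 0.22, edgeR adjusted p = 0.0340). Both enzymes act on ribulose 5-phosphate, and their groups did not overlap.

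Transketolase and transaldolase link the branch back to glycolysis, and of these transketolase was called. TKT fell from 840 and 331 CPM to 191, 168 and 163 CPM (log2 fold change -1.75, SE 0.37, edgeR adjusted p = 0.0252), with -0.92 without control 1 and -2.27 without control 2. TALDO1 was at 19.3 and 138 CPM against 230.1, 189 and 197 CPM, where control 1 lay far below control 2, and it missed the threshold (log2 fold change 1.37, SE 0.70, edgeR adjusted p = 0.186). Without control 1 the TALDO1 value was 0.58 and without control 2 it was 3.40. Exons of RPE overlap KANSL1L on the other strand, and by library size only RPIA missed the threshold (edgeR adjusted p = 0.0570).

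Of the TCA cycle, FH was the member past the threshold. Fumarase, its product, turns fumarate into malate, and its gene was at 15.4 and 13.2 CPM in the controls and at 42.4, 40.0 and 35.5 CPM in the knockdown (log2 fold change 1.46, SE 0.23, edgeR adjusted p = 0.0161). It was at 1.58 without control 1 and 1.35 without control 2. CS, citrate synthase at the entry of the cycle, was at 11.5 and 42.1 CPM against 71.1, 81.5 and 95.8 CPM, above both controls, but missed the threshold (log2 fold change 1.6002, edgeR adjusted p = 0.0601). CS passed by DESeq2 (adjusted p = 0.00838), limma-voom (0.0411) and without a filter on low counts (edgeR, 0.0273), and its value was 0.97 without control 1 and 2.84 without control 2. ME2, the mitochondrial malic enzyme, was at 124 and 30.7 CPM against 25.04, 25.7 and 26.6 CPM, and its log2 fold change of -1.58 (edgeR adjusted p = 0.0653) was -0.25 without control 1.

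The other dehydrogenases of the cycle moved less or varied between controls. IDH3B, a subunit of the NAD-dependent isocitrate dehydrogenase, was at 186 and 153 CPM against 114, 109 and 89.5 CPM (log2 fold change -0.70, edgeR adjusted p = 0.0515). It was past the threshold by DESeq2 (adjusted p = 0.0264) and limma-voom (0.0483). Its catalytic partner IDH3A was at 95.1 and 129 CPM against 153, 135 and 137 CPM (log2 fold change 0.33). MDH1, the cytosolic malate dehydrogenase, was at 24.0 and 79.6 CPM against 130.4, 106 and 123 CPM, and MDH2, the mitochondrial form, at 164 and 205 CPM against 254, 272 and 239 CPM. Neither passed, with edgeR adjusted p values of 0.102 and 0.135, though all knockdown libraries were above both controls in both genes.

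The NADP-dependent isocitrate dehydrogenases IDH1 (cytosolic) and IDH2 (mitochondrial) had log2 fold changes of 0.39 and 0.17. IDH1 was at 13.4 and 16.03 CPM against 18.3, 16.3 and 23.7 CPM, and IDH2 at 10.0 and 28.5 CPM against 22.1, 22.2 and 21.97 CPM. The beta subunits of succinyl-CoA synthetase, SUCLG2 (GTP-forming, 25.2 and 41.1 CPM against 45.4, 30.5 and 35.8 CPM) and SUCLA2 (ATP-forming, 26.4 and 14.3 CPM against 23.6, 19.8 and 36.7 CPM), overlapped between groups. The remaining cycle genes ACO1, OGDH, DLST, DLD and SUCLG1 had log2 fold changes from -0.70 (DLST) to 0.36 (OGDH), with edgeR adjusted p values from 0.201 to 0.906.

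Isozyme choice was compared within each library as the log2 ratio of read counts of 2 genes (0.5 added to each count), which is free of library scaling and of transcript length when set against the same ratio in another library. These ratios use the same counts as the levels above. With 2 against 3 libraries, an exact two-sided permutation test cannot go below p = 0.1, and adjusted over the 13 pairs the lowest value was 0.162, so none could pass. For 10 pairs the ratios of the groups did not overlap (the background for single genes was 60.1%).

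The hexokinase ratio moved farthest and was close within each group. HK1 over HK2 had a log2 ratio of 4.43 and 4.34 (controls) against 1.70, 1.76 and 1.53 (knockdown), a difference of -2.73 (exact permutation p = 0.1), or 6.62-fold toward HK2. Leaving out any 1 library gave differences from -2.66 to -2.77. LDHA over LDHB was at -1.85 and -1.45 against -0.66, -0.42 and 0.03, a difference of 1.30 toward LDHA (exact permutation p = 0.1). SLC16A1 over SLC16A3 was at 0.09 and 0.60 against 1.53, 1.82 and 2.16, a difference of 1.49 toward SLC16A1 (exact permutation p = 0.1).

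Other pairs shifted by less or varied more. PFKM over PFKL differed by 1.42 and PFKP over PFKL by 0.57, both away from PFKL. IDH3A over IDH3B differed by 1.05, with values of -0.97 and -0.24 (controls) against 0.43, 0.30 and 0.61 (knockdown). MDH1 over MDH2 differed by 0.98, but the controls lay 1.40 apart and the difference was 0.28 without control 1. ENO1 over ENO2 differed by 0.92, with 3.98 and 4.14 (controls) against 5.04, 4.91 and 4.97 (knockdown) (each of these 5 pairs at exact permutation p = 0.1).

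The pairs SLC2A1 over SLC2A3 (0.46), PFKFB3 over PFKFB2 (0.84) and ALDOA over ALDOC (-0.90) had an exact permutation p of 0.2. The first of these was 0.26 without control 2 and 0.67 without control 1, and the last was -0.34 without control 1. IDH1 over IDH2 (0.003) and SUCLG2 over SUCLA2 (-0.22) had an exact permutation p of 1, and their controls lay 1.25 and 1.59 apart.

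**Figure D3:**
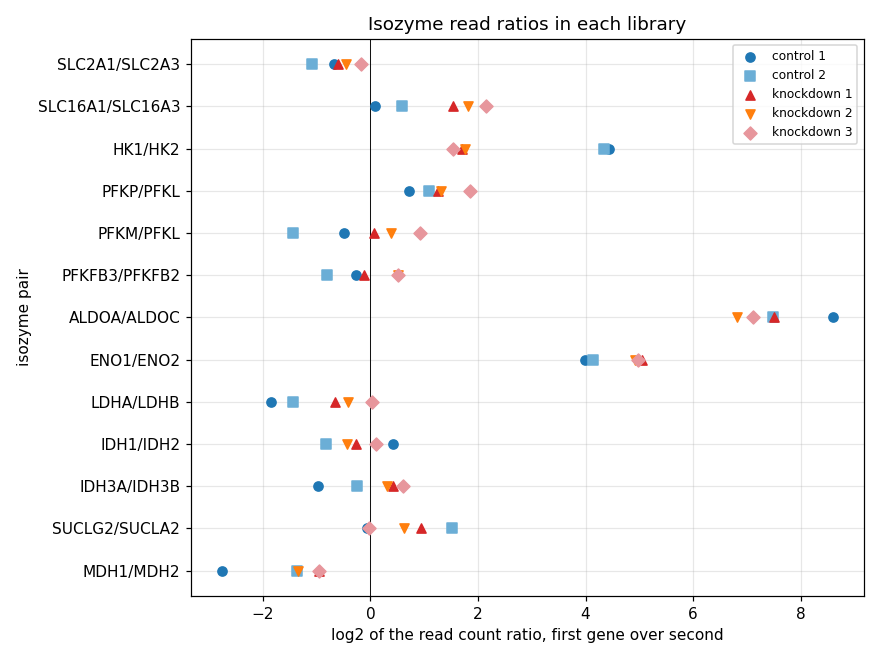
Log2 ratio of read counts for the 13 isozyme pairs in each of the 5 libraries. HK1/HK2 lies above 4 in both controls and between 1.53 and 1.76 in the knockdown, while the libraries of the groups mix for ALDOA/ALDOC, IDH1/IDH2 and SUCLG2/SUCLA2.

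The rest of the pathway was read from lists of 88 further genes, of which 73 were tested, 11 rose and 4 fell (20.5%, against the background of 22.6%). Among 11 other glycolytic and gluconeogenic enzymes, 3 rose and none fell: ADPGK, an ADP-dependent glucokinase (log2 fold change 1.33), PGM2, a phosphopentomutase (1.18), and TIGAR, which lowers fructose 2,6-bisphosphate (1.09). Of 9 other glucose and lactate carriers none passed. PRPS2, which turns ribose 5-phosphate into the precursor of nucleotides, rose among 5 other pentose phosphate genes (log2 fold change 1.17). The mitochondrial pyruvate carrier was split, with MPC2 at 1.79 (15.4 and 17.97 CPM against 50.6, 50.8 and 72.3 CPM) and MPC1 at -1.11 (130.3 and 62.3 CPM against 47.2, 44.0 and 42.5 CPM). Without control 1 the MPC1 value was -0.48, and by limma-voom its adjusted p of 0.0657 was outside the threshold. Exons of ADPGK overlap ADPGK-AS1 and those of MPC2 overlap DCAF6, in each case on the other strand.

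Around the TCA cycle 3 of 17 further genes rose (SDHB, SDHC and SDHD) and 1 fell. Called genes made up 23.5% of this list, near the background of 22.6% of all tested genes. SDHB, the iron-sulfur subunit of succinate dehydrogenase, was at 11.002 and 11.8 CPM against 52.3, 48.4 and 58.3 CPM, and SDHC, its membrane anchor, at 5.13 and 8.59 CPM against 38.6, 36.8 and 47.6 CPM. SDHB and SDHC had log2 fold changes of 2.21 and 2.54 and SDHD, the other anchor, of 1.77 (edgeR adjusted p = 0.0483). The SDHD call was lost by limma-voom (adjusted p = 0.0792) and by library size only (edgeR, 0.0541), and its value was 1.42 without control 1 and 2.44 without control 2. Succinate dehydrogenase acts one step before fumarase (FH). SLC25A11, the carrier that exchanges oxoglutarate for malate, fell by 1.218 on the log2 scale (154.5 and 123 CPM against 58.8, 60.7 and 59.5 CPM). Exons of SDHC overlap CFAP126 on the other strand.

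Among 20 regulators 3 rose and 2 fell, a share of calls near the background of 22.6% of all tested genes. PRKAA1, a catalytic subunit of the energy sensor AMPK, had a log2 fold change of 1.64 and TFAM, the mitochondrial transcription factor, of 0.80. HIF1AN, the asparagine hydroxylase that restrains HIF, fell by 1.11 on the log2 scale. The remaining calls, named after their values were seen, were EGLN1, a prolyl hydroxylase that marks HIF for removal (1.05), and VHL, which carries out that removal (-1.04, or -0.57 without control 1). HIF1A, the oxygen-regulated subunit itself, was at -0.83 and missed the threshold by edgeR (adjusted p = 0.0578) but not by DESeq2 (adjusted p = 0.0312). HIF1A was also named after its value was seen.

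**Figure D4:**
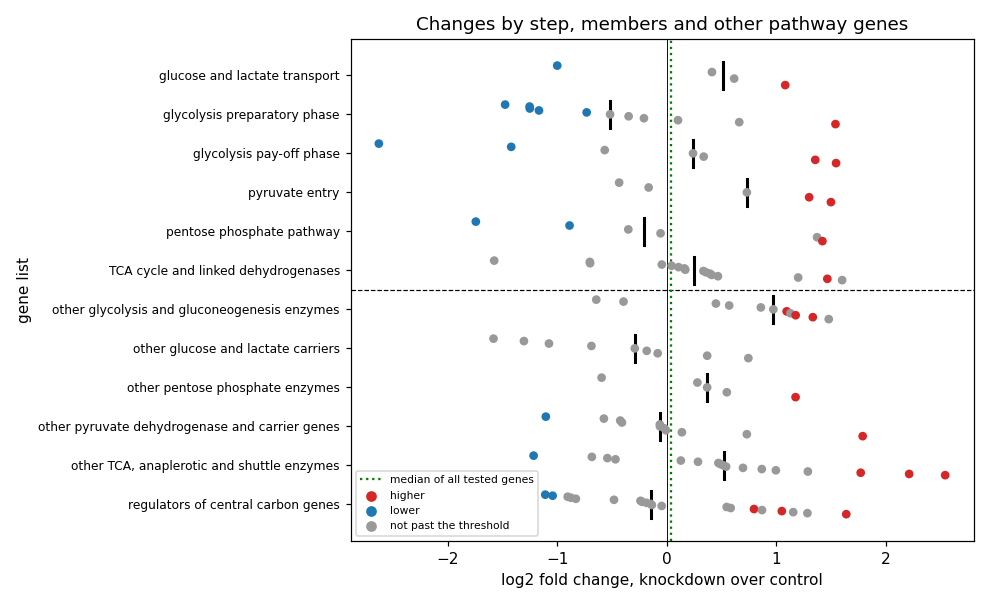
Log2 fold change (knockdown over control) of each tested gene by list, members above the dashed line and the other pathway genes below it; black bars are list medians, the dotted line is the median of all tested genes (0.04), and vertical offsets only separate points. Called genes lie on both sides in glycolysis, while 1 of 16 TCA cycle members is called (6.25%, against a background of 22.6% of all tested genes).

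The promoter table held 77 start regions for 46 of the 50 members. In the 250 bases before the start, ACGTG (either strand) lay in 6 of 11 regions of the members that rose, 7 of 26 of those that fell and 9 of 39 of those not called, against 18.5% of all 35116 regions of that length. By gene, 5 of 8 that rose, 5 of 10 that fell and 9 of 27 not called had it in at least 1 region, against 21.7% of all 27305 genes in the table. Both directions had genes with and without the letters. ALDOA (3 of 3 regions) and GAPDH (1 of 1), which fell, had them, while SLC2A1, RPE and FH, which rose, did not. The window of TPI1 printed above lacks them and its other region has them, and the reverse holds for LDHA. No test was made of these counts, and regions of one gene overlap. The summed exon length was also similar in both directions, with a median of 2980 bases in the members that rose and 3030 in those that fell, against 3260 over all tested genes.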

How the data were processed

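The deposited values are whole-number counts of reads per gene in 5 libraries. The authors made them with featureCounts 1.6.2 over exons, per the file headers, without a strand option and with a read on overlapping genes credited to every one of them. STAR 2.7, DESeq2 1.22 and hg38 are named in the submitters' processing notes. How reads were trimmed is not given in the sources used here. The authors' deposited table of the comparison was not used.

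Genes were filtered with filterByExpr (minimum count 10), leaving 14536, scaled with TMM factors (trimmed mean of M values) and tested without covariates with edgeR 4.0.16 (R 4.3.3). The SE was obtained as |log2 fold change| over the root of F. A count of 0 allows up to 0.307 to 0.734 CPM (3 counts, counting error only). The members, lists and pairs were chosen with earlier results of these data known. Per-library values are given for members past the threshold and members of isozyme pairs, and up to 3 genes with the smallest p are named per further list. Alternatives were DESeq2 1.42.0, limma-voom (limma 3.58.1), RLE scaling, library size only, no filter, 5 CPM in at least 2 libraries, removal of TERT and short non-coding RNA genes, the replicate number as a block, other pseudocounts (0.1 and 1) and each library left out. On simulated counts of 14283 genes for knockdown against control, the procedure called 71% of 100 genes changed 4-fold, 1% of 100 changed 2-fold and 4 of 14083 unchanged genes. The simulation gave both groups the same spread for each gene. The real controls differed more from each other (r of 0.911) than the knockdown libraries did (0.986 to 0.988), so these shares may not hold for the real libraries.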

Additional observations from a re-analysis of the deposited data

How the results depend on the processing

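The 18 called members kept their direction in all 13 alternatives. For the fits with 1 library left out this was nearly fixed in advance, since the groups of all 18 did not overlap. The other alternatives refitted the same counts of genes picked for their call, so a kept direction there is no separate support. The 18 members also kept their call with DESeq2, limma-voom, RLE scaling, the stricter filter, and removal of TERT and short RNA genes. By library size only 15 kept it and without a filter 17. With the replicate block or without any 1 knockdown library none kept it. Over all genes, leaving out 1 library gave 0 to 8811 calls, from 0 to 19 members higher and 0 to 16 lower, and 0 to 31 other pathway genes higher and 0 to 18 lower. The other pathway genes that fell numbered 9 by DESeq2 and 2 by library size only. The AKAP12 log2 fold change was -1.09 by DESeq2, -0.98 by limma-voom and -0.996 without a filter. It was -1.06 with the stricter filter and -1.04 with TERT and short RNA genes removed. In each of these it was past the threshold. With 1 library left out it ran from -1.42 to -0.52. AKAP12 missed the threshold by RLE scaling (edgeR adjusted p = 0.0505), library size only (-0.78, edgeR adjusted p = 0.0716) and the replicate block (-0.93, edgeR adjusted p = 0.298). Without any 1 knockdown library it missed as well (edgeR adjusted p from 0.161 to 0.201). The cause of these shifts was not tested. Same-numbered libraries did not deviate together (r of -0.0565 and -0.0761). With the replicate block, which leaves few degrees of freedom, edgeR called 210 genes, 0 members higher and 0 lower, and 2 other pathway genes higher and 0 lower. For isozyme ratios the block was the mean difference within replicates 1 and 2, which equals the value without knockdown 3. It was -0.15 for IDH1 over IDH2 and 0.056 for SUCLG2 over SUCLA2, a reversed sign. Members with no call whose value changed sign with 1 library left out ran from -0.27 to 0.55 for PFKM, -0.39 to 0.011 for PFKFB2, -0.68 to 0.18 for ALDOC, -0.37 to 1.13 for IDH2, -0.14 to 0.56 for SUCLG2, -0.38 to 0.082 for PDHA1, -1.39 to 0.26 for DLST, -0.40 to 0.40 for PGD, -0.66 to 0.00076 for PGLS, -0.16 to 0.29 for SUCLG1 and -0.12 to 0.0027 for ACO1. SUCLG2 was at -0.003 without knockdown 1. By library size only PDHA1 was at 0.064, PGD at 0.11 and ACO1 at 0.16. With 1 library left out, IDH1 over IDH2 ran from -0.62 to 0.63 and SUCLG2 over SUCLA2 from -1.01 to 0.58. Low counts limit ALDOC, DLST, PC and PGAM1.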
